A study of Mus musculus with 4 samples.

Results

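The genes described here encode the ELL family of elongation factors and their partners in the super elongation complex: Ell, Ell2, Ell3, Eaf1, Eaf2, Aff1, Aff4, Cdk9, Ccnt1 and Ccnt2. They were picked out by gene symbol, and the set was drawn up with earlier results of these libraries known. All 10 symbols were present among the 22722 genes counted, each as a single entry, and all 10 had enough counts to be among the 11027 genes tested. RNA came from MPC11, a mouse plasmacytoma line bought from ATCC, a tumour line of immunoglobulin-secreting plasma cells. The Ell2-KD cells carried lentivirus pLKO.1-shELL2-1C7, a short hairpin RNA against Ell2, and the shGFP cells carried pLKO.1-shGFP, a hairpin against GFP that has no target of its own in mouse cells. Both were exposed to virus and polybrene for 18 h, selected in puromycin for 72 h and expanded for another 72 h. There were 2 libraries per group, called biological replicates in the labels without a statement that each was transduced separately, so p-values reflect only how far these samples differed from each other, which may be technical. Depletion rested on 1 hairpin, and every library was from the same line.

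RNA polymerase II tends to pause soon after it starts a transcript. Its release depends on P-TEFb, the kinase Cdk9 bound to cyclin T1 or T2 (Ccnt1 and Ccnt2), which phosphorylates the polymerase and the pausing factors. In the super elongation complex the scaffold proteins AFF1 or AFF4 hold P-TEFb together with an ELL protein, which raises the elongation rate, and with EAF1 or EAF2, which bind ELL proteins and stimulate them. ELL2 is the member known for its induction in plasma cells, where it favours the secretory polyadenylation site of the immunoglobulin heavy chain message.

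The libraries held 13914488 and 3496471 counts for Ell2-KD replicates 1 and 2, and 8323915 and 5088789 counts for shGFP replicates 1 and 2. Values in CPM are counts scaled to a common library size after TMM scaling, which corrects the library totals for composition. Markers of plasma cells were abundant: 10 of them summed to 18600 and 14700 CPM of the unscaled library total in Ell2-KD, against 22600 and 17600 in shGFP. Most of that sum came from Igj and Xbp1, while Ly6k had 3 counts in Ell2-KD replicate 1 and 0 elsewhere. All 9 plasma cell markers tested had log2 changes below 0, as had 5525 of the 11027 tested genes, and none passed. For 7 of them both Ell2-KD libraries lay below both controls, against 18.5% of all tested genes. Xbp1 and Cd79b overlapped, with log2 changes of -0.05 and -0.04. Sdc1 and Pou2af1 did not overlap and had log2 changes of -0.79 ± 0.23 and -0.89 ± 0.22 (SE). Of the 9 markers, 3 had an unadjusted edgeR p under 0.05, against 5.82% of all tested genes. Among the 7 without overlap, Tnfrsf17 (BCMA) stood at 1.28 and 0.293 CPM in Ell2-KD against 19.0 and 25.0 CPM in shGFP (edgeR adjusted p = 0.18). Its counts were 18 and 1 in Ell2-KD against 159 and 126 in shGFP. The gene was thus tested through its control level, and its depleted level is poorly measured. The 10 T and NK cell markers summed to 1.01 and 5.15 in Ell2-KD against 2.04 and 5.11 in shGFP. The 10 myeloid markers summed to 4.60 and 5.15 against 1.56 and 2.95, with S100a8 at 0 in every library. The 10 fibroblast and epithelial markers reached 456 and 593 against 495 and 634, nearly all of it from the adhesion gene Epcam. The part of these sums in the results below was not tested.

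Ell2, the targeted gene, was the most abundant of the 10 genes per length in the control cells and was 9.53-fold lower in the depleted cells. Its raw counts were 1238 and 394 in Ell2-KD replicates 1 and 2, against 7864 and 5019 in shGFP replicates 1 and 2. This corresponded to 87.8 and 115 CPM in Ell2-KD against 938 and 996 CPM in shGFP. The groups did not overlap, and in each group the replicates lay close together relative to the gap between groups. The log2 change was -3.25 ± 0.23 (SE; edgeR quasi-likelihood test, Benjamini-Hochberg adjusted p = 0.00032), with a 95% confidence interval of -3.77 to -2.74, so 10.5% of the control level was left. Ell2 had the smallest p of the 11027 genes tested and the 79th largest fitted change by absolute size. Of those genes, 0.0363% were called lower, and Ell2 was the only one of the 10 described here among them. Per the labels' protocols, ELL2 transcript was measured in these RNA preparations before sequencing, so a low level was looked for before these libraries were made. In bulk RNA, fewer transcripts in every cell and a share of cells that escaped the hairpin could not be told apart.

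The ELL paralogs lie on different chromosomes and have only short identical stretches. GENCODE M21 (build GRCm38) places Ell on chromosome 8, Ell2 on 13 and Ell3 on 2. The longest stretch that the protein-coding transcripts of Ell and Ell2 have in common was 19 bases, in the coding part of each gene. Only exact identity was searched, so reads placed with mismatches are not covered. The stretch is shown with 10 bases on either side, and capitals mark the identical bases.
Ell: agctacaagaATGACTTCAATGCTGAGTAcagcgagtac
Ell2: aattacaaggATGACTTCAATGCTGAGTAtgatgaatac
The longest stretch that Ell3 had in common was 12 bases with Ell2 and 13 bases with Ell. The sources used here do not give the read length, the strand setting or how reads that match several genes were treated. Of the annotated exon bases of Ell2, 0.956% are also covered by an antisense transcript, 1700037F03Rik, and 1.32% by a small nucleolar RNA gene on the same strand.

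Ell, the founding member of the family and a broadly expressed elongation factor, had few counts and did not pass the test. It had 193 and 102 counts in Ell2-KD replicates 1 and 2, and 117 and 119 in shGFP replicates 1 and 2. Its level was 13.7 and 29.9 CPM in Ell2-KD against 14.0 and 23.6 CPM in shGFP. The groups overlapped, and in each group replicate 2 was higher than replicate 1. The log2 change was 0.20 ± 0.55 (SE; edgeR adjusted p = 1), and its 95% interval of -1.02 to 1.42 corresponds to 0.495-fold to 2.67-fold. A change of Ell was not detectable at this spread, and the interval holds changes of either sign.

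Ell3, the shortest of the paralogs and known mostly from testis and embryonic stem cells, had the fewest counts of the 10 genes. Its counts were 77 and 0 in Ell2-KD replicates 1 and 2, and 48 and 17 in shGFP replicates 1 and 2. The 3 libraries with counts stood at 5.46 CPM in Ell2-KD replicate 1 and at 5.72 and 3.37 CPM in shGFP replicates 1 and 2. The 0 in Ell2-KD replicate 2, the shallowest library, allows up to 0.878 CPM, taking 3 counts as the upper limit of a count of 0, for counting error only. Ell2-KD replicate 2 was thus low and Ell2-KD replicate 1 was within the control range, so the groups overlapped. The log2 change of -0.66 ± 1.43 (SE; edgeR adjusted p = 1) was 0.26 without Ell2-KD replicate 2. With Ell2-KD replicate 2 as the only depleted library, its limit of 0.878 CPM lay 5.18-fold below the control mean of 4.55 CPM. That fold takes the control mean as exact, though the controls stood at 5.72 and 3.37 CPM. The change of Ell3 thus turned on which Ell2-KD library was kept. Of the annotated exon bases of Ell3, 65.6% are also exon of Serinc4 on the same strand, and how such reads were assigned is not given in the sources used here. Serinc4 itself had 1 and 1 counts in Ell2-KD against 18 and 3 in shGFP.

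**Figure D1:**
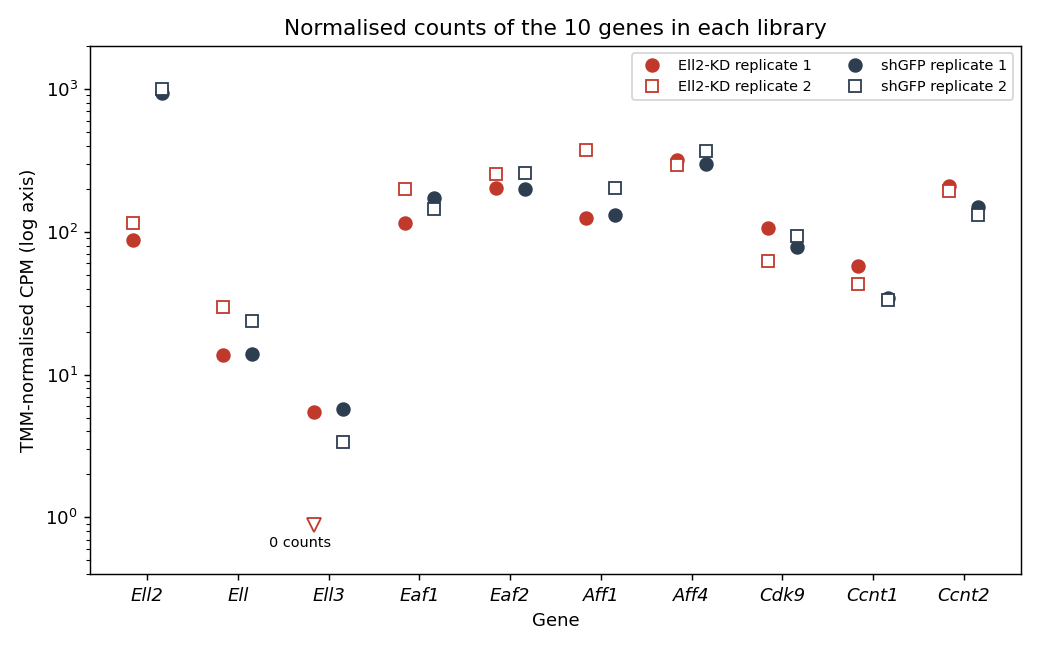
TMM-normalised CPM (vertical log axis) of the 10 genes (horizontal axis) in each library, Ell2-KD in red and shGFP in dark blue, filled circles for replicate 1 and open squares for replicate 2; the open triangle is Ell3 in Ell2-KD replicate 2, which had 0 counts and is drawn at its limit of 0.878 CPM. Ell2 stands at 87.8 and 115 CPM in Ell2-KD against 938 and 996 CPM in shGFP. Of the other genes only Ccnt1 and Ccnt2 show no overlap between groups, a separation found for 35.8% of all tested genes.

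Levels were compared between genes only after division by length, as CPM per kilobase of annotated exon. On this scale Ell2 stood at 10.3 ± 1.98 in Ell2-KD against 98.4 ± 4.19 in shGFP (SD, n = 2 each). Ell stood at 7.01 ± 3.68 in Ell2-KD against 6.04 ± 2.20 in shGFP, and Ell3 at 1.25 ± 1.76 against 2.08 ± 0.759. Among the 10901 tested genes with a length, the mean level of Ell2 lay at percentile 57.1 in Ell2-KD against 96.0 in shGFP. That of Ell lay mid-range, at percentile 46.6 in Ell2-KD against 42.9 in shGFP, and that of Ell3 at 15.4 against 21.1. Since 65.6% of the exon bases of Ell3 are shared with Serinc4, its level per length depends on how such reads were assigned. That is not known, so the percentile, family share and place in the order of Ell3 are uncertain too.

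The ELL family as a whole was thus much smaller in the depleted cells, and Ell2 still made up more of what remained than either paralog on average. The sum over Ell, Ell2 and Ell3 was 15.8 and 21.3 CPM per kilobase in Ell2-KD replicates 1 and 2, against 103 and 110 in shGFP replicates 1 and 2. Ell2 contributed 56.4% and 55.0% of that sum in Ell2-KD, against 93.1% and 91.7% in shGFP. The ratio of Ell2 to Ell per length was 2.03 and 1.22 in Ell2-KD, against 21.3 and 13.3 in shGFP. All of these values separated the groups without overlap. Each of these values contains the level of Ell2, so the separation restates the fall of Ell2 and is no further result. An exact permutation test of 2 against 2 libraries cannot give a two-sided p below 0.333, so no p is attached to them. The annotated exons of Ell2 add up to 9828 bases while its longest transcript has 5126. With the longest transcript as the length, the share of Ell2 was 70.9% and 69.8% in Ell2-KD against 96.2% and 95.4% in shGFP. In Ell2-KD the ranges of Ell2 and Ell per length, 8.94 to 11.7 against 4.4 to 9.61, overlapped on the exon scale.

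**Figure D2:**
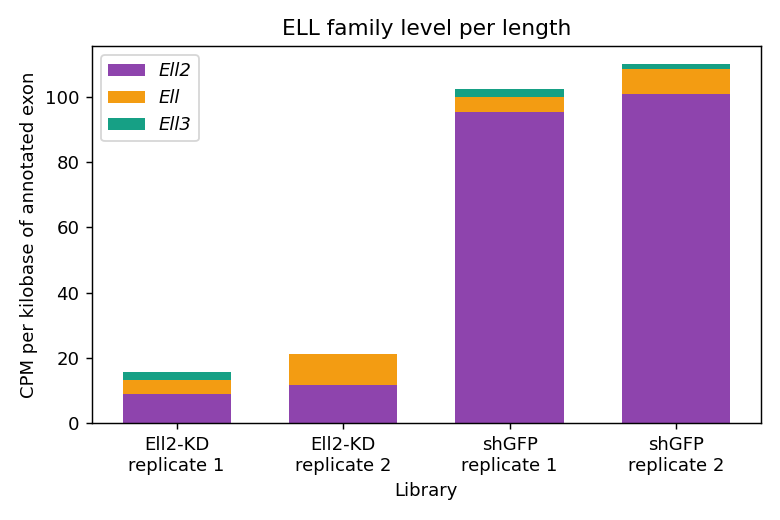
Level of Ell2, Ell and Ell3 stacked in each library (horizontal axis), in CPM per kilobase of annotated exon (vertical axis from 0), with Ell2-KD on the left and shGFP on the right. The stacks reach 15.8 and 21.3 in Ell2-KD against 103 and 110 in shGFP, and the difference lies in the Ell2 segment.

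The ELL-associated factors Eaf1 and Eaf2 did not pass the test. Eaf2, which with Eaf1 binds and stimulates ELL proteins, stood at 202 and 253 CPM in Ell2-KD replicates 1 and 2, against 198 and 257 CPM in shGFP replicates 1 and 2. The control range held both depleted libraries. Its log2 change was -0.00 ± 0.25 (SE; edgeR adjusted p = 1) and the 95% interval ran from -0.54 to 0.54. Eaf1 stood at 115 and 198 CPM in Ell2-KD against 172 and 145 CPM in shGFP. Here the depleted libraries lay on opposite sides of the controls, with replicate 1 below and replicate 2 above them. The log2 change of Eaf1 was -0.02 ± 0.30 (SE; edgeR adjusted p = 1), with an interval of -0.67 to 0.63. Between libraries of the same replicate number it was -0.58 for number 1 and 0.45 for number 2. Of the exon bases of Eaf1, 2.53% overlap Mettl6 on the other strand. Per length, Eaf2 exceeded Eaf1 in every library, with ratios of 2.21 and 1.60 in Ell2-KD against 1.45 and 2.23 in shGFP. The longest stretch in common between their coding sequences was 13 bases.

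The scaffold genes Aff1 and Aff4 did not pass either, and of the 9 genes with counts in every library Aff1 differed most between the Ell2-KD replicates. Aff4 encodes the main scaffold that gathers the other subunits. It stood at 318 and 295 CPM in Ell2-KD replicates 1 and 2, against 299 and 365 CPM in shGFP replicates 1 and 2. Its groups overlapped, and the log2 change was -0.12 ± 0.22 (SE; edgeR adjusted p = 1) with an interval of -0.60 to 0.37. Aff1, also known as AF4 and as a fusion partner of MLL in leukaemia, stood at 124 and 373 CPM in Ell2-KD against 131 and 203 CPM in shGFP. Ell2-KD replicate 2 was the highest of the 4 libraries and Ell2-KD replicate 1 the lowest, a 3.01-fold gap within 1 group. The log2 change was 0.57 ± 0.57 (SE; edgeR adjusted p = 0.98), with an interval of -0.91 to 2.05. Without Ell2-KD replicate 1 it was 1.16 (edgeR adjusted p = 0.017) in a fit whose spread came from the controls alone and which called 142 genes over all, and without Ell2-KD replicate 2 it was -0.42 (edgeR adjusted p = 0.8). The ratio of Aff4 to Aff1 per length was 1.81 and 0.556 in Ell2-KD, against 1.61 and 1.27 in shGFP. Ell2-KD replicate 2 was thus the only library in which Aff1 exceeded Aff4. The longest stretch in common between the scaffold genes was 20 coding bases, in capitals below.
Aff1: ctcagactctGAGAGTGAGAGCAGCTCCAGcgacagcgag
Aff4: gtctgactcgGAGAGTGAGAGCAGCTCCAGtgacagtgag

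Both cyclin T genes stood higher in each depleted library than in each control library, while the kinase gene Cdk9 did not separate. Ccnt2 stood at 208 and 194 CPM in Ell2-KD replicates 1 and 2, against 150 and 131 CPM in shGFP replicates 1 and 2. Its log2 change of 0.52 ± 0.24 (SE) had an unadjusted p of 0.054 in edgeR and an edgeR adjusted p of 0.86, with an interval of -0.01 to 1.04. Ccnt1 stood at 57.5 and 43.0 CPM in Ell2-KD against 34.1 and 33.3 CPM in shGFP. The control replicates of Ccnt1 nearly coincided, while those of Ell2-KD differed 1.34-fold. Its log2 change was 0.58 ± 0.36 (SE; edgeR adjusted p = 0.91), with an interval of -0.22 to 1.38. Neither gene passed, and a position of both depleted libraries above both controls was found for 17.4% of all tested genes. The log2 change stayed positive under each of 10 alternative settings, at 0.35 to 0.78 for Ccnt1 and 0.42 to 0.63 for Ccnt2. These settings refit the same libraries, so with groups that do not overlap the positive sign adds no separate support. Of the exon bases of Ccnt1, 7.59% overlap an antisense transcript, 9330020H09Rik, which had 53 and 7 counts in Ell2-KD against 32 and 10 in shGFP.

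Cdk9 stood at 107 and 62.9 CPM in Ell2-KD replicates 1 and 2, against 78.3 and 94.1 CPM in shGFP replicates 1 and 2. The depleted libraries lay on either side of the controls. The log2 change was -0.01 ± 0.33 (SE; edgeR adjusted p = 1), with an interval of -0.74 to 0.71, and between libraries of the same number it was 0.45 and -0.58. Per length, Ccnt2 exceeded Ccnt1 in every library, with ratios of 2.68 and 3.35 in Ell2-KD against 3.27 and 2.91 in shGFP. The sum of both cyclin T genes over Cdk9 was 0.995 and 1.5 in Ell2-KD, against 0.936 and 0.697 in shGFP. This ratio did not overlap between the groups, though the gap between the nearest libraries was smaller than the spread within either group. Between the cyclins the longest stretch in common was also 20 coding bases, in capitals below.
Ccnt1: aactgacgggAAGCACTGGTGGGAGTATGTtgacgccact
Ccnt2: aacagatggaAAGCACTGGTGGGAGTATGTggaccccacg

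Over the 9 genes other than Ell2, none passed the test in edgeR or in DESeq2, and none had an unadjusted edgeR p under 0.05. Among all tested genes 0.0453% were called, with 0.00907% called higher, and 5.82% had an unadjusted p under 0.05. Of the 9 genes, 4 had fitted log2 changes above 0 and 5 below, from -0.66 to 0.58. Their median was 0.00, as was that of all tested genes. The groups did not overlap for 2 of the 9, against 35.8% of all tested genes. The intervals given above exclude a fall as large as that of Ell2 for 8 of them, while that of Ell3, -3.82 to 2.50, does not.

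**Figure D3:**
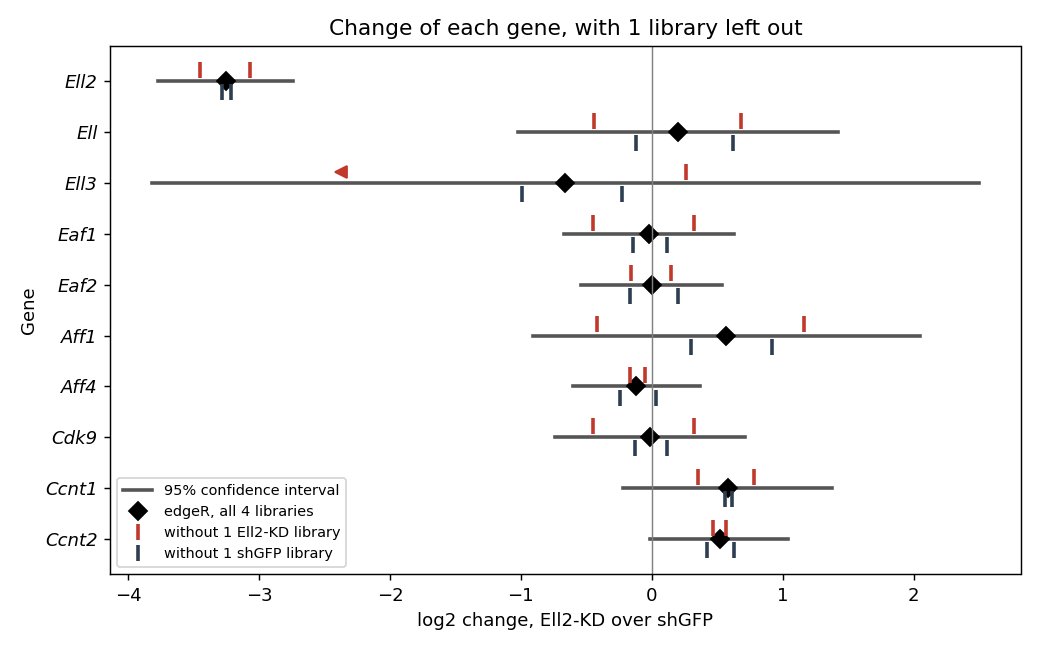
Fitted log2 change of Ell2-KD over shGFP (horizontal axis) for each gene (vertical axis), with black diamonds for the fit to all 4 libraries, grey lines for its 95% confidence interval, and red or dark blue ticks for fits without 1 Ell2-KD or 1 shGFP library. Ell2 lies at -3.25 with all its ticks between -3.45 and -3.07, while the ticks of Aff1 run from -0.42 to 1.16. The left-pointing red triangle of Ell3, at -2.37, sets the limit of the library with 0 counts against the control mean. It is drawn in place of a fitted value and leaves out the spread of the controls.

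The order of the levels per length differed between the groups mainly by the place of Ell2. In Ell2-KD the order was Eaf2, Eaf1, Aff1, Aff4, Cdk9, Ccnt2, Ell2, Ell, Ccnt1 and Ell3, with Ell2 at position 7. In shGFP it was Ell2, Eaf2, Eaf1, Aff4, Cdk9, Aff1, Ccnt2, Ell, Ccnt1 and Ell3. Neighbours in the order whose library ranges overlapped numbered 6 in Ell2-KD and 2 in shGFP. In Ell2-KD these were Eaf1 with Aff1, Aff1 with Aff4, Aff4 with Cdk9, Cdk9 with Ccnt2, Ell2 with Ell and Ell with Ccnt1. In shGFP they were Eaf1 with Aff4 and Cdk9 with Aff1. Eaf2, at 52.0 ± 8.20 CPM per kilobase in Ell2-KD against 52.0 ± 9.62 in shGFP (SD, n = 2 each), was the highest of the remaining genes in both groups. The order depended in part on the length used. With the longest transcript, Aff4 stood above Aff1 and Ccnt2 above Cdk9 in Ell2-KD, and Aff4 stood above Eaf1 in shGFP. Ell2 kept its place in both groups.

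The genes whose profile over the 4 libraries was most like that of Ell2 were Esm1, Zfp658, Plau, 2810006K23Rik and Med12l, in that order. Likeness was the Euclidean distance between log2 CPM values centred over the 4 libraries, taken over the 9428 genes averaging 5 CPM or more, and the distances ran from 0.275 for Esm1 to 0.739 for Med12l. Esm1, which encodes the secreted proteoglycan endocan, had 12 and 5 counts in Ell2-KD against 98 and 56 in shGFP. Plau encodes the urokinase plasminogen activator and had 16 and 4 counts in Ell2-KD against 89 and 43 in shGFP. Med12l, a relative of the Mediator subunit Med12, had 20 and 12 counts against 135 and 89. All 5 had far fewer counts than Ell2, and their edgeR adjusted p ran from 0.22 for Zfp658 to 0.71 for Plau, so none passed. In Ell2-KD their means ran from 1.15 CPM (Plau) to 2.85 CPM (Zfp658), below the limit of 5 CPM. In shGFP they ran from 9.57 CPM (Plau) to 26.4 CPM (Zfp658), so all 5 met that limit through their control level.

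Other genes of the elongation machinery were examined in 5 lists that hold 66 tested genes. None passed in edgeR, against 0.0453% of all tested genes, and 2 had an unadjusted edgeR p under 0.05, a smaller share than the 5.82% of all tested genes. DESeq2 called 1, Cdk8, where it called 0.207% of its 16434 genes. Of the 66, 35 had log2 changes above 0 and 31 below, and the median was 0.01. The groups did not overlap for 15 of them, against 35.8% of all tested genes.

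Among 11 tested partners of the super elongation complex and members of the AF4 family, 5 changes were positive and 6 negative, with a median of -0.02. The genes of the YEATS-domain subunits, which read acylated histones, overlapped between the groups. Mllt1 (ENL) stood at 80.2 and 70.3 CPM in Ell2-KD against 84.2 and 59.5 CPM in shGFP, and Mllt3 (AF9) at 33.2 and 23.1 against 45.1 and 27.6 CPM. Mll1, the histone methyltransferase now named Kmt2a, stood at 182 and 179 CPM in Ell2-KD against 182 and 186 CPM in shGFP; its 4 values lay within a few CPM of each other. Aff3, a relative of Aff1 and Aff4, stood at 19.2 and 18.7 CPM in Ell2-KD against 3.70 and 16.5 CPM in shGFP, and its fitted change was 0.93 ± 0.71 on the log2 scale (SE; edgeR adjusted p = 0.95). Between libraries of the same number the change of Aff3 was 2.30 for number 1 and 0.18 for number 2. Mllt10, a DOT1L partner, had a log2 change of 0.58 ± 0.42 and Ash2l, a subunit of the MLL methyltransferases, one of -0.31 ± 0.29.

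The 7SK particle holds P-TEFb inactive until it is released. Its list had 12 tested genes, 7 with changes above 0 and 5 below, at a median of 0.10, and none passed. Hexim1, which inhibits the kinase within the particle, stood at 18.7 and 11.1 CPM in Ell2-KD against 29.8 and 17.3 CPM in shGFP (log2 change -0.65 ± 0.53, SE; edgeR adjusted p = 0.96). The genes with the smallest p in this list were the splicing factor Srsf2, the helicase Ddx21 and the phosphatase Ppm1g, with log2 changes of 0.34 ± 0.21, 0.30 ± 0.19 and -0.43 ± 0.28. No counted gene symbol matched the 7SK RNA itself (Rn7sk), so it was not analysed here.

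The little elongation complex, in which ELL proteins serve small nuclear RNA genes, and the ubiquitin ligases that turn ELL2 over in human cells formed a list of 8 tested genes with a median of 0.04, none of which passed. Siah2, of the SIAH ligase family, stood at 92.8 and 70.8 CPM in Ell2-KD against 49.4 and 59.1 CPM in shGFP, without overlap (log2 change 0.60 ± 0.31, SE; edgeR adjusted p = 0.87). Siah1b had a log2 change of 0.40 ± 0.39 and Coil, the scaffold of Cajal bodies, one of 0.24 ± 0.32. BC018507 (Ice1), the complex's scaffold, stood at 153 and 114 CPM in Ell2-KD against 142 and 125 CPM in shGFP.

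Among 23 tested pausing and elongation factors, 14 changes were positive and 9 negative, with a median of 0.08, and none passed. Tcea1, which encodes the factor TFIIS that restarts arrested polymerase, stood at 49.3 and 91.0 CPM in Ell2-KD against 27.8 and 34.9 CPM in shGFP (log2 change 1.16 ± 0.39, SE; edgeR adjusted p = 0.71). Leo1, a subunit of the PAF complex, stood at 49.8 and 48.0 CPM against 72.6 and 63.5 CPM, and Whsc2 (Nelfa), a subunit of the negative elongation factor, had a log2 change of -0.52 ± 0.38.

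The 12 other transcription kinases and cyclins had 4 positive and 8 negative changes and a median of -0.05, and none passed. Cdk8, the kinase of the Mediator kinase module, stood apart from the rest of the list. It stood at 73.6 and 59.4 CPM in Ell2-KD replicates 1 and 2, against 19.4 and 12.7 CPM in shGFP replicates 1 and 2. The groups were far apart, and the log2 change was 2.04 ± 0.40 (SE; edgeR adjusted p = 0.26). Cdk8 missed the threshold in this fit but passed without a low count filter (edgeR adjusted p = 0.018), in DESeq2 (adjusted p = 0.0065) and with a replicate block (edgeR adjusted p = 0.036). It also passed without either Ell2-KD library, in fits whose spread came from the controls alone. The fits without a filter, with DESeq2 and with the block called 22, 34 and 28 genes over all, against 5 in the main fit. Cdk8 did not pass with DESeq2 size factors (edgeR adjusted p = 0.25) or upper-quartile scaling (edgeR adjusted p = 0.27). Nor did it pass with the filter at 1 CPM in all libraries (edgeR adjusted p = 0.17) or without either shGFP library. Over 10 alternatives its log2 change ran from 1.77 to 2.40, with an adjusted p of 0.0014 to 0.3 in edgeR or DESeq2. Mnat1, the assembly factor of the Cdk7 kinase, had a log2 change of 0.55 ± 0.38, and Ccnl1, cyclin L1, one of 0.34 ± 0.28.

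**Figure D4:**
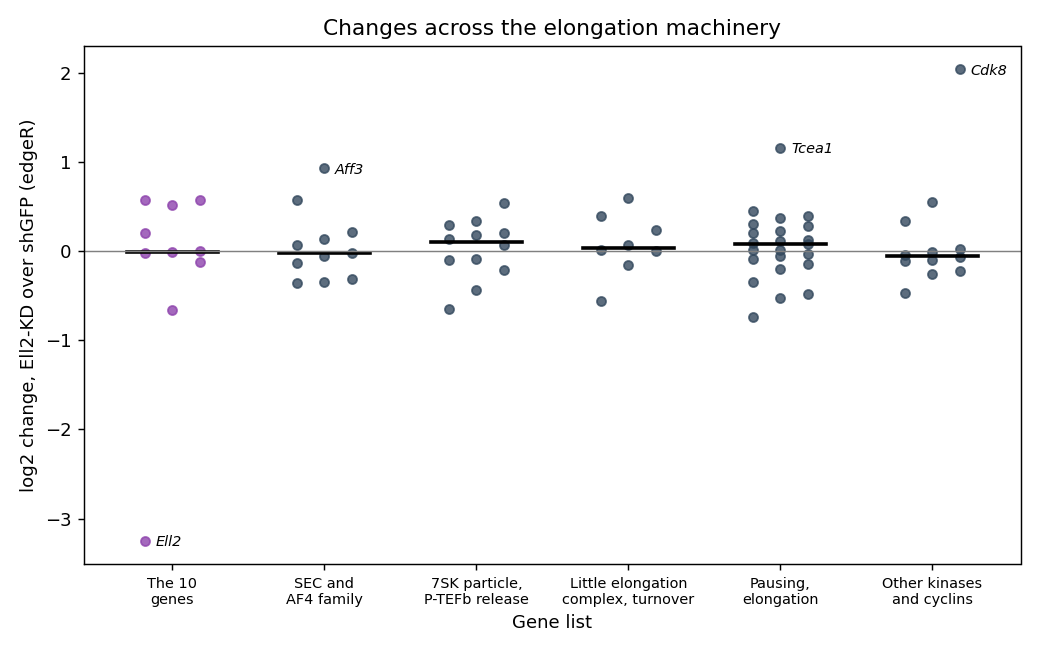
Fitted log2 change of Ell2-KD over shGFP (vertical axis) for the 10 genes and for 5 lists of other elongation genes (horizontal axis), with a point per tested gene, spread sideways only for legibility, and a black line at each median. The medians lie between -0.05 and 0.10, with Ell2 at -3.25 and Cdk8 at 2.04 as the outermost points.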

How the data were processed

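The authors deposited 1 table of raw read counts per gene symbol for each of the 4 SOLiD libraries of total RNA, per the file headers and the labels. The submitters' processing notes name HTSeq 0.5.3, DESeq 1.4.1, SAMtools 0.1.11 and the genome build mm9. Aligner, annotation and strand setting were not given in the sources, so reads of overlapping genes could not be told apart.

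Counts were fitted in R 4.3.3 with edgeR 4.0.16: filterByExpr (minimum count 10, minimum total 15), TMM scaling, glmQLFit with robust settings and glmQLFTest with group as the only term, two-sided. Benjamini-Hochberg adjustment covered the 11027 tested genes, at a threshold of 0.05. A standard error is the log2 change divided by the square root of F. Exon lengths, overlaps and transcript sequences came from GENCODE M21 (GRCm38), which differs from mm9, so no coordinates are given; 21314 of 22722 symbols had a length.

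Named were the 10 genes, the 3 tested genes of lowest p in each list, the 5 genes nearest to Ell2 among those with a mean of at least 5 CPM (log2 CPM, prior count 2), and Mll1, Mllt1 and Mllt3; Hexim1, BC018507, the cell type markers and the genes overlapping a member were added after their values were seen. Members and lists were chosen with earlier results of these data known. Alternatives were other scalings, filters and lengths, DESeq2 1.42.0, a replicate block and leaving out each library.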

Additional observations from a re-analysis of the deposited data

How the results depend on the processing

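The fall of Ell2 passed under all 10 alternatives, at -3.45 to -3.07. The count of genes called, 5 in all, was 22 without a low count filter, 34 with DESeq2 and 28 with the replicate block, and with a library left out it was 142 (Ell2-KD replicate 1), 82 (Ell2-KD replicate 2), 14 (shGFP replicate 1) or 22 (shGFP replicate 2); the cause was not tested. A group left with 1 library was assumed to vary like the other group. Members called other than Ell2 numbered 0 to 1 with 1 library left out (Aff1, at 1.16, without Ell2-KD replicate 1), and 0 under every other setting. List genes called numbered 1 without a filter, with DESeq2 and with the block, and 0 to 2 with 1 library left out; Cdk8 was among them each time, joined by Tcea1 without Ell2-KD replicate 1. Deviations from the group means of same-numbered libraries correlated at 0.311 over 11027 genes, and the labels do not say what a number marks. Among genes that did not pass, directions turned with 1 library left out for Ell (-0.44 to 0.68), Ell3 (-7.69 to 0.26, the lower end a fit to 1 depleted library with 0 counts and no measure of size), Eaf1 (-0.45 to 0.32), Eaf2 (-0.17 to 0.20), Aff1 (-0.42 to 1.16), Aff4 (-0.24 to 0.03) and Cdk9 (-0.45 to 0.32). The change of Eaf2 was also 0.01 with DESeq2 size factors, 0.04 without a filter and 0.00 with DESeq2 and with the block. That of Cdk9 was 0.08 without a filter and 0.02 with DESeq2. With the longest transcript as length, Ell2 made up 70.4% of the ELL family in Ell2-KD and 95.8% in shGFP, against 55.7% and 92.4% on the exon scale. The filter at 1 CPM in all libraries left Ell3 untested. Depth sets a limit of 0.878 CPM for a count of 0 in the shallowest library, of 3496471 counts.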
